A study of Mus musculus with 2 samples.

Results

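The 8 genes Entpd1, Nt5e, Cd38, Ada, Adora2a, Adora2b, P2rx7 and P2rx4, which break down or sense extracellular ATP, NAD and adenosine, were followed through the immune cells of mouse liver metastases. They were chosen by symbol from 56941 listed features, and all 8 were found in both libraries. The cells were selected for CD45 from liver lesions of C57BL/6 mice that were 6 to 8 weeks old when MC38-LM3b tumor cells were injected into the spleen, and the lesions were taken 2 weeks later. MC38-LM3b is a derivative of the MC38 colorectal cancer line that was selected in mice for spread to the liver. In the Ctrl group the injected cells carried a scrambled hairpin (shScramble), and in the KD group they carried a hairpin against SLAMF3 (shSLAMF3), a receptor encoded by Ly9. Only the injected cells carried a hairpin, so the immune and endothelial cells described here were unmodified host cells in both groups. Each group was 1 library, for which lesions of 3 mice had been pooled. No replicate error could therefore be measured, no test was made, and all intervals are 95% intervals that cover counting error only.

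ATP that leaves damaged or activated cells acts on P2X and P2Y receptors and is a signal of danger to immune cells. CD39, the product of Entpd1, converts ATP and ADP to AMP, and CD73, the product of Nt5e, converts AMP to adenosine. CD38 consumes NAD and can feed the same route to adenosine. Adenosine restrains T cells and shapes myeloid cells through its receptors, encoded here by Adora2a and Adora2b, until adenosine deaminase (Ada) or uptake removes it. P2X7 and P2X4, encoded by P2rx7 and P2rx4, are ion channels opened by ATP. P2X7 needs high ATP and is linked to inflammasome activation in macrophages.

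The Ctrl library held 67207234 UMIs (molecule tags that count each captured RNA once) in 10416 barcodes, and the KD library held 64444715 UMIs in 10943 barcodes. Filtering kept 9814 and 10185 cells, with medians of 5412 and 4989 UMIs, and 27 barcodes occurred in both libraries. Ly9 had 12 UMIs in the tumor-like or fibroblast-like cells of Ctrl and 7 in those of KD, and the log2 ratio of -0.14 (-1.73 to 1.32) showed no detectable difference at this depth, so the knockdown could not be checked. The 12 classes compared for level were named from markers and were clustered without the 8 genes. Macrophages (monocytes included) made up 4051 Ctrl and 2899 KD cells, CD8+ T cells 2504 and 956, CD4+ T cells (Tregs included) 207 and 443, naive-like T cells 360 and 476, and NK-like cells 168 and 215. B cells made up 276 and 893 cells, cDCs 386 and 585, granulocytes 776 and 2223, endothelial cells 150 and 645, Kupffer cells 33 and 74, pDCs 82 and 73, and tumor-like or fibroblast-like cells 161 and 96. The class names are of this work and may differ from those of the study. The endothelial class carried Stab2 and Clec4g, markers of liver sinusoidal endothelium, and its Ptprc (CD45) level was 98.4 CPM in Ctrl and 121 CPM in KD, against 564 and 634 CPM in macrophages. A level is given as CPM, the UMIs of a gene per 1000000 UMIs of its class and library. Levels are compared between classes and libraries, not between genes. Granulocyte markers outside granulocytes were higher in KD. The summed level of 12 such markers was 202 CPM in Ctrl macrophages and 855 CPM in KD macrophages, and 48.2 and 155 CPM in CD8+ T cells. In macrophages, a class that includes monocytes, stray granulocyte RNA was not told apart from the cells' own expression.

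**Figure D1:**
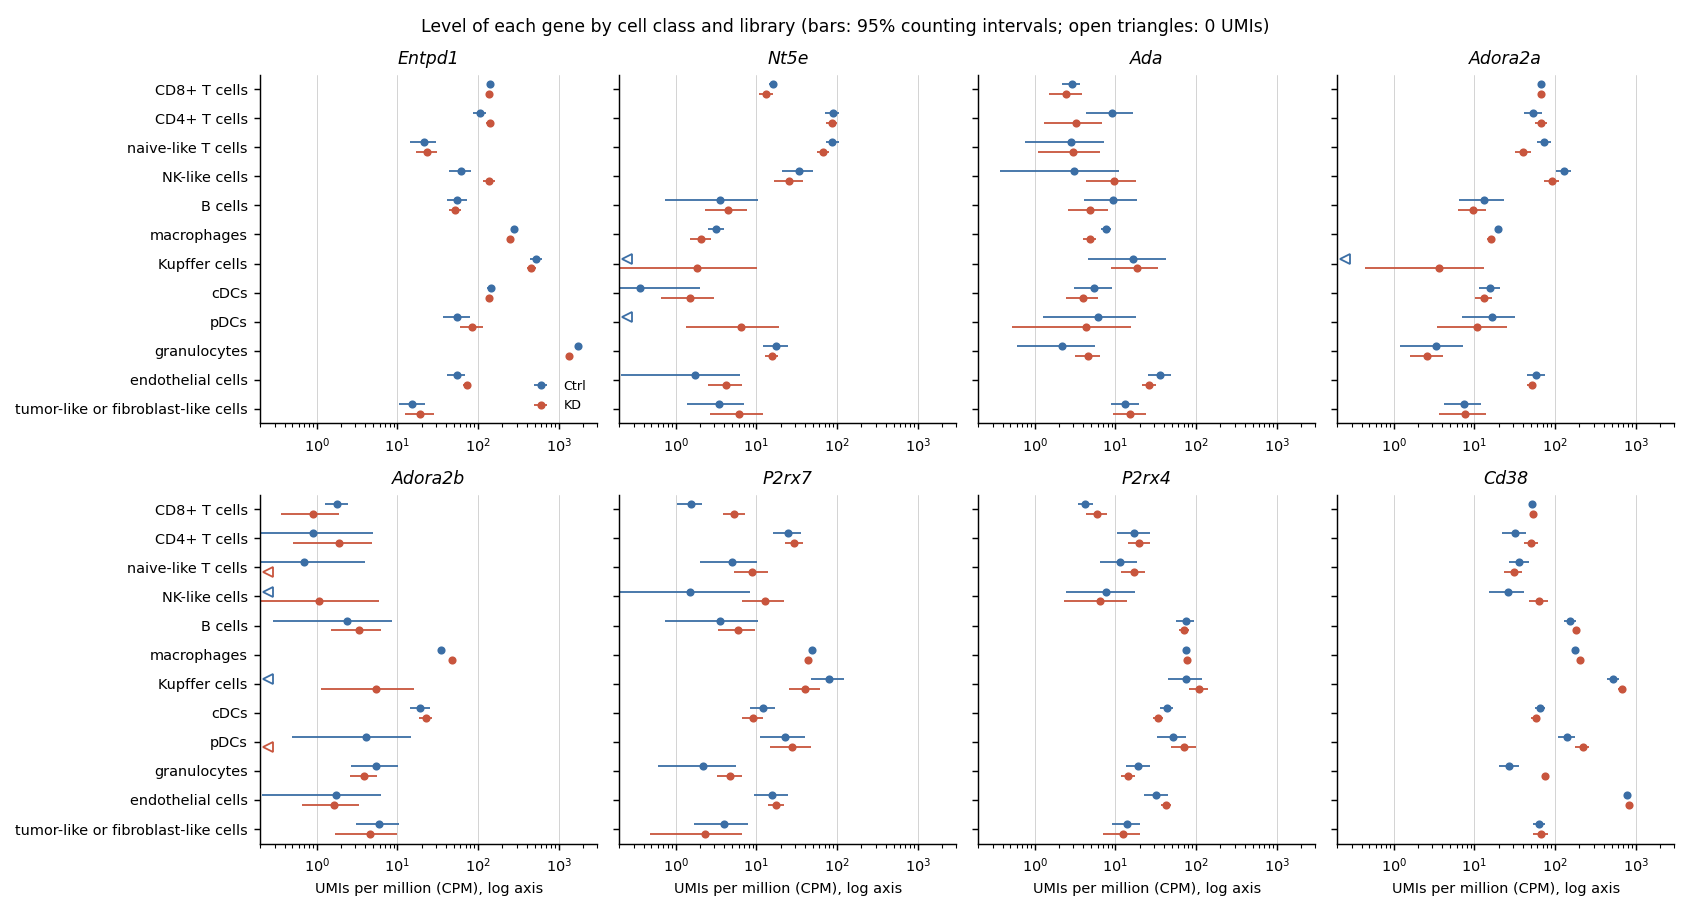
Level of each gene (CPM, UMIs per 1000000 UMIs of the class, log axis) in 12 cell classes, with Ctrl in blue and KD in red, 1 library each. Points are the summed counts of a library, bars are 95% counting intervals, and open triangles mark 0 UMIs. Entpd1 stood highest in granulocytes (1732 and 1327 CPM), Cd38 in endothelial cells (768 and 811 CPM) and Adora2b in macrophages (34.7 and 47.3 CPM).

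Entpd1, which codes for the ATP-degrading ectoenzyme CD39, was highest in granulocytes. Their level was 1732 CPM in Ctrl, from 3153 UMIs, and 1327 CPM in KD, from 9651 UMIs. Kupffer cells followed with 522 and 458 CPM, and macrophages with 278 and 251 CPM. Each of these 3 classes stood above the next in both libraries, and their counting intervals did not overlap. Over the next 7 classes no neighbours were apart in both libraries at once: cDCs had 144 and 136 CPM, CD8+ T cells 142 and 135, CD4+ T cells 106 and 139, NK-like cells 60.5 and 137, pDCs 55.1 and 83.7, endothelial cells 54.0 and 72.9, and B cells 55.4 and 52.0. Naive-like T cells lay below B cells in both libraries, with 21.1 and 23.2 CPM. CD8+ and CD4+ T cells thus stood apart from naive-like ones for this gene.

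When every cell was thinned to 1500 UMIs, 77.9% of Ctrl granulocytes (74.5% to 81.0%) and 73.9% of KD granulocytes (71.9% to 75.8%) held an Entpd1 UMI. The share was 31.2% and 28.1% in macrophages and 17.5% and 21.3% in CD8+ T cells. Naive-like T cells had the lowest share of the immune classes, 2.66% (1.15% to 5.17%) and 2.11% (0.968% to 3.96%). They are given as the low end and not as a measure of free RNA. At the granulocytes' own ratio of Entpd1 to markers, granulocyte RNA would carry 1.44 and 3.42 CPM in them, against 21.1 and 23.2 CPM found. Without thinning, those shares were 81.4% and 85.7% in granulocytes, 66.3% and 66.6% in macrophages and 6.11% and 7.98% in naive-like T cells. Granulocytes and macrophages thus stood far above naive-like T cells in both libraries.

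The cells that held the Entpd1 transcripts differed between libraries, as did the shares of the classes in each library. Macrophages held 46.3% of all Entpd1 UMIs in Ctrl and 28.1% in KD. Granulocytes held 20.4% and 48.4%, and CD8+ T cells held 19.8% and 5.21%. Of the UMIs of all genes, macrophages held 40.1% and 36.3%, granulocytes 2.83% and 11.8%, and CD8+ T cells 33.7% and 12.5%. Over all kept cells the Entpd1 level was 241 CPM for Ctrl and 323 CPM for KD, a log2 ratio of 0.43 (0.40 to 0.46), while the ratio within granulocytes was -0.38 (-0.44 to -0.33) and within macrophages -0.15 (-0.20 to -0.10). Counted per cell in place of per UMI, the ratio was 0.10 within granulocytes and 0.13 within macrophages, so the direction within these 2 classes depends on the unit.

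The granulocytes consisted of a cluster led by G0s2 and Hcar2 (732 Ctrl and 1618 KD cells) and a cluster led by Ngp, Camp and Ltf, granule genes of immature neutrophils (44 and 605 cells). Entpd1 was 1842 CPM in Ctrl and 1623 CPM in KD in the G0s2 cluster, and 1018 and 933 CPM in the Ngp cluster. The log2 ratios within the clusters were -0.18 (-0.25 to -0.12) and -0.13 (-0.31 to 0.07), both nearer to 0 than that of the class.

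**Figure D2:**
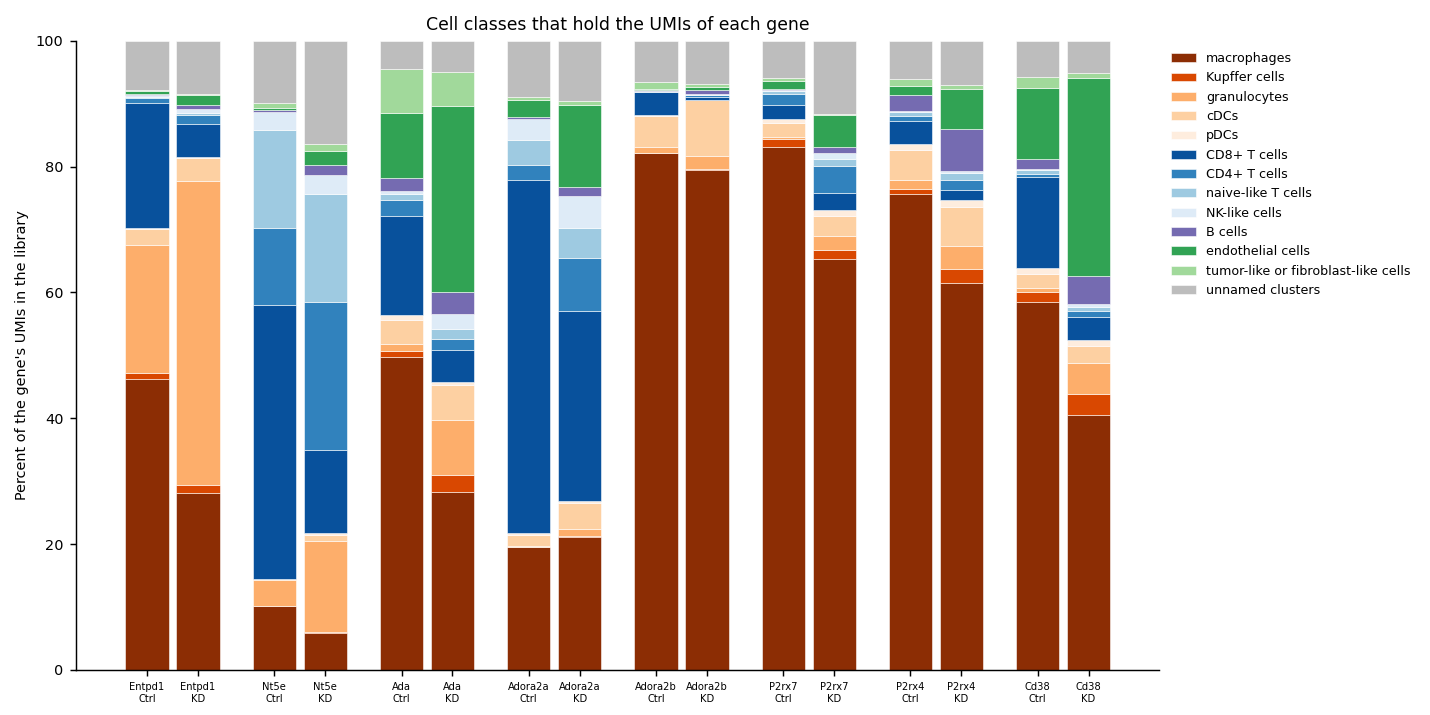
Share of each gene's UMIs held by each cell class, in percent, for the Ctrl and KD libraries, with 1 bar per library. Granulocytes held 20.4% of Entpd1 UMIs in Ctrl and 48.4% in KD, and endothelial cells held 11.3% and 31.4% of Cd38 UMIs. Of the UMIs of all genes, granulocytes held 2.83% and 11.8%, and endothelial cells 1.79% and 6.96%.

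Within the T cells, Entpd1 was higher in the CD8+ subsets than in the naive-like clusters led by Lef1 (19.1 and 19.5 CPM) or with Slamf6 among the leading genes (18.0 and 16.7 CPM). A naive-like cluster of 131 cells with a median of 1003 UMIs had 59.6 CPM on 5 UMIs and 138 CPM on 10 UMIs, with a KD interval of 66.1 to 253 CPM that overlapped those of the CD8+ subsets. In Ctrl and KD it was 201 and 177 CPM in the effector-like cluster (Gzma, Gzmk, Ccl5), 142 and 143 in the exhausted-like cluster (Pdcd1, Havcr2 and Lag3, with Spp1, Ccl3 and Prf1 among its leading genes) and 127 and 114 in the cycling-like cluster. None of these 3 differed between libraries by an interval that left out 0, and over all CD8+ T cells the log2 ratio was -0.07 (-0.18 to 0.03). Among CD8+ T cells thinned to 1500 UMIs, Entpd1 was found in 19.8% (16.9% to 22.9%) of the 698 Ctrl cells with a UMI of Havcr2, which encodes the inhibitory receptor TIM-3, and in 16.6% (14.9% to 18.4%) of the 1800 without. In KD the shares were 21.6% (16.7% to 27.2%) of 250 cells and 21.1% (18.2% to 24.3%) of 705 cells. The intervals of cells with and without Havcr2 overlapped in both libraries.

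Tregs, the CD4+ cells with Foxp3 and Il2ra, had 115 CPM of Entpd1 in Ctrl (66 UMIs in 73 cells) and 245 CPM in KD (167 UMIs in 112 cells). The log2 ratio was 1.09 (0.67 to 1.52). In conventional CD4+ T cells the levels were 95.3 and 89.7 CPM, with a log2 ratio of -0.09 (-0.57 to 0.41). The 2 CD4+ subsets thus gave different ratios, whose difference was not tested. In cells thinned to 1500 UMIs, 15.1% of Ctrl Tregs (7.77% to 25.4%) and 24.3% of KD Tregs (16.7% to 33.4%) held an Entpd1 UMI, and these intervals overlapped. The summed granulocyte markers in CD4+ T cells were 48.8 CPM in Ctrl and 260 CPM in KD, which at the granulocytes' own ratio of Entpd1 to markers would carry 1.15 and 2.86 CPM of Entpd1.

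NK-like cells had Entpd1 at 60.5 CPM in Ctrl (40 UMIs) and 137 CPM in KD (129 UMIs), with a log2 ratio of 1.17 (0.65 to 1.72), which was 0.17 when classes were built from single cells. Clustering at resolution 1.0, which was examined after the values had been seen, split the NK-like cells. A cluster led by Klra4, Klra8 and Ncr1 held 152 Ctrl and 119 KD cells, and a cluster with Itga1 and Cd200r2 among its leading genes held 15 and 94. Itga1 codes for CD49a, an integrin of liver-resident lymphocytes. In the Klra4 cluster Entpd1 was 59.8 and 89.3 CPM, with a log2 ratio of 0.58 (-0.08 to 1.25). In the Itga1 cluster it was 68.0 CPM on 5 UMIs and 203 CPM on 81 UMIs, with a log2 ratio of 1.58 (0.30 to 3.24). The Itga1 cluster, which was mostly of KD cells, thus had the higher Entpd1 level in KD. The summed T cell markers in NK-like cells were 840 and 1273 CPM and the granulocyte markers 66.6 and 255 CPM, and the part of the former in the result was not tested, while the latter would carry 1.57 and 2.80 CPM of Entpd1.

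Endothelial cells had 54.0 CPM of Entpd1 in Ctrl and 72.9 CPM in KD, with a log2 ratio of 0.43 (0.04 to 0.85). Granulocyte markers summed to 32.2 CPM in Ctrl endothelial cells and 1459 CPM in KD endothelial cells, which would carry 0.758 and 16.0 CPM of Entpd1. Macrophage markers summed to 3017 and 4023 CPM in endothelial cells, against 15782 and 19561 CPM in macrophages. The part of macrophage RNA in the Entpd1 level of endothelial cells was not tested. Without likely doublets the ratio was -0.21, and with cells thinned to 1500 UMIs it was -0.72, so that no direction can be given for Entpd1 in these cells.

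Nt5e, which codes for the adenosine-forming ectoenzyme CD73, was highest in CD4+ and naive-like T cells. Its level was 87.6 CPM in Ctrl and 85.4 CPM in KD in CD4+ T cells (97 and 183 UMIs), and 87.4 and 66.3 CPM in naive-like T cells (124 and 134 UMIs). These 2 classes overlapped with each other and stood above all others in both libraries, with counting intervals apart from those of NK-like cells (33.3 and 25.4 CPM). Granulocytes had 17.6 and 15.4 CPM and CD8+ T cells 16.0 and 13.2 CPM. B cells (3.53 and 4.42 CPM), macrophages (3.15 and 2.06), endothelial cells (1.74 and 4.19) and cDCs (0.363 and 1.52) had few Nt5e UMIs.

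Within the T cells, Tregs had 107 CPM of Nt5e in Ctrl and 113 in KD, and conventional CD4+ T cells 67.3 and 72.6. The naive-like cluster led by Lef1 had 105 CPM in Ctrl (88 UMIs) and 69.8 in KD (111 UMIs), a log2 ratio of -0.59 (-1.01 to -0.17), and a smaller one with Slamf6 among its leading genes had 60.1 and 47.3. After thinning, 9.90% of Ctrl CD4+ T cells (6.15% to 14.9%) and 11.9% of KD CD4+ T cells (8.995% to 15.3%) held an Nt5e UMI, against 0.399% and 0.251% of macrophages. CD8+ T cells held 43.6% of the Nt5e UMIs in Ctrl and 13.1% in KD, against 33.7% and 12.5% of the UMIs of all genes. Naive-like T cells held 15.6% and 17.2% of the Nt5e UMIs, and CD4+ T cells 12.2% and 23.5%. Their shares of the UMIs of all genes were 2.21% and 3.28%, and 1.72% and 3.47%. Granulocytes held 4.04% and 14.4% of the Nt5e UMIs, and the unnamed clusters 9.84% and 16.4%. Of the CD4+ T cells with an Entpd1 UMI at this depth, 1 of 29 in Ctrl and 9 of 67 in KD also held an Nt5e UMI, against 19 of 173 and 43 of 371 of the others. The intervals of these shares overlapped in each library, so neither joint nor exclusive detection of the ectoenzymes was detectable at this depth. Among B cells only 1 Ctrl cell and 4 KD cells held an Nt5e UMI at this depth.

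**Figure D3:**
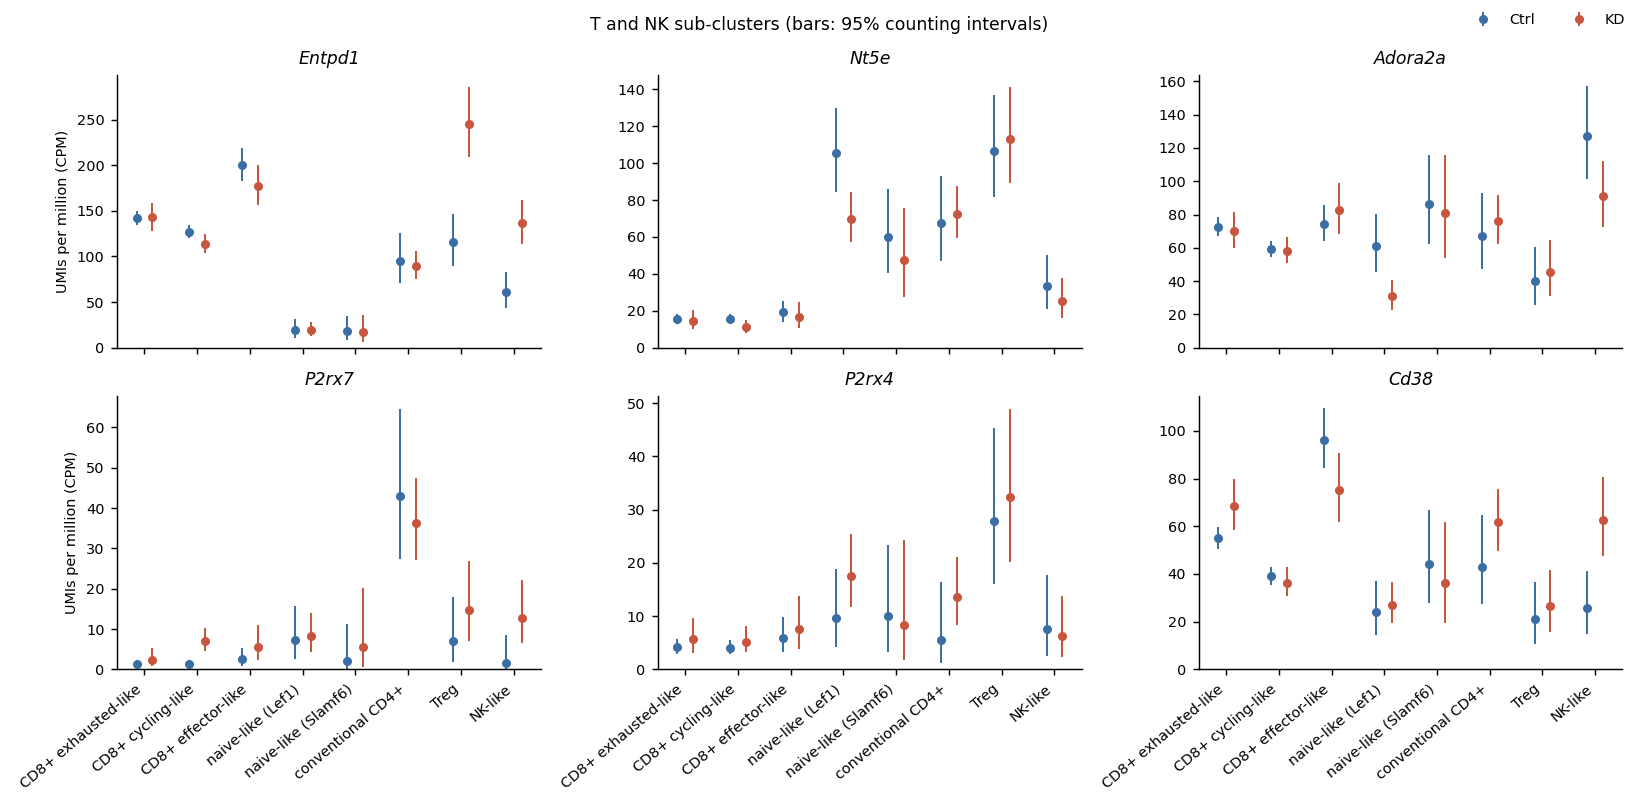
Level (CPM, linear axis from 0) of 6 genes in 8 sub-clusters of T and NK-like cells, Ctrl in blue and KD in red, with 95% counting intervals. The 2 naive-like clusters shown are marked by a leading gene, and the one with a median of 1003 UMIs is left out. Nt5e was low in the CD8+ effector-like cluster (19.1 and 16.7 CPM), Treg Entpd1 was 115 CPM in Ctrl and 245 CPM in KD, and P2rx7 was highest in conventional CD4+ cells (43.0 and 36.3 CPM).

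Cd38, which codes for an NAD-consuming ectoenzyme, was highest in endothelial cells. Their level was 768 CPM in Ctrl (882 UMIs) and 811 CPM in KD (3483 UMIs), with a log2 ratio of 0.08 (-0.03 to 0.19). Kupffer cells followed with 522 and 674 CPM, below the endothelial cells with separate intervals in each library. Macrophages (178 and 200 CPM), pDCs (141 and 219) and B cells (152 and 182) formed an overlapping group below them. Tumor-like or fibroblast-like cells (63.6 and 65.8), cDCs (65.3 and 57.1) and CD8+ T cells (52.3 and 53.8) lay lower. After thinning, 68.3% of Ctrl endothelial cells (59.3% to 76.4%) and 67.9% of KD endothelial cells (63.9% to 71.8%) held a Cd38 UMI, against 2.52% and 7.94% of NK-like cells, the class of lowest share in Ctrl. No difference between the libraries was detectable in endothelial cells at this depth.

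The endothelial cells numbered 150 in Ctrl and 645 in KD, and their share of all Cd38 UMIs was 11.3% and 31.4%. Macrophages held 58.5% and 40.5%, and CD8+ T cells 14.4% and 3.75%. Of the UMIs of all genes, endothelial cells held 1.79% and 6.96%, macrophages 40.1% and 36.3%, and CD8+ T cells 33.7% and 12.5%. Over all kept cells the log2 ratio of Cd38 was 0.56 (0.52 to 0.60), against 0.17 (0.11 to 0.23) within macrophages. Among thinned cells, macrophages with an Entpd1 UMI held a Cd38 UMI at a rate of 23.2% (20.8% to 25.7%) in the Ctrl library and 22.6% (19.7% to 25.7%) in the KD library. Macrophages without an Entpd1 UMI did so in 19.0% (17.5% to 20.5%) and 24.0% (22.1% to 25.9%). The intervals of cells with and without Entpd1 did not overlap in Ctrl and overlapped in KD.

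Granulocytes had 26.9 CPM of Cd38 in Ctrl (49 UMIs) and 74.9 CPM in KD (545 UMIs), with a log2 ratio of 1.48 (1.05 to 1.93). The G0s2 cluster had 15.8 CPM on 25 UMIs and 44.8 CPM on 186 UMIs, a log2 ratio of 1.498 (0.89 to 2.16). The Ngp cluster had 99.3 and 115 CPM, a log2 ratio of 0.21 (-0.38 to 0.88). Cd38 was thus higher in the Ngp cluster than in the G0s2 cluster of both libraries, and the G0s2 cluster had a ratio near that of the class. The Ngp cluster held 44 of 776 granulocytes in Ctrl and 605 of 2223 in KD. The thinned share of granulocytes with a Cd38 UMI was 3.22% (2.005% to 4.88%) and 6.72% (5.67% to 7.89%). Endothelial cells are where Cd38 was highest, and the summed endothelial markers in granulocytes were 29.7 CPM in Ctrl and 46.5 CPM in KD. The summed macrophage markers in granulocytes were much higher, 4453 and 4982 CPM, against 15782 and 19561 CPM in macrophages. The part of endothelial and of macrophage RNA in the Cd38 result was not tested.

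In lymphocytes, the CD8+ effector-like cluster had 96.3 CPM of Cd38 in Ctrl and 75.1 in KD, with a ratio on the log2 scale of -0.36 (-0.70 to -0.02), the exhausted-like cluster 54.9 and 68.5 (0.32, 0.06 to 0.57), and the cycling-like cluster 39.0 and 36.4. CD4+ T cells had 31.6 CPM on 35 UMIs in Ctrl and 50.4 CPM on 108 UMIs in KD, a log2 ratio of 0.67 (0.11 to 1.27), and when cells were thinned to 1500 UMIs this ratio was 0.03. Conventional CD4+ T cells had 43.0 and 61.6 CPM and Tregs 21.0 and 26.4 CPM, and neither ratio had an interval that left out 0. In NK-like cells Cd38 was 25.7 CPM on 17 UMIs and 62.4 CPM on 59 UMIs, a log2 ratio of 1.28 (0.48 to 2.15), which was 0.10 when classes were built from single cells. The Klra4 cluster had 13.7 CPM on 8 UMIs and 35.4 CPM on 19 UMIs, and the Itga1 cluster had 122 CPM on 9 UMIs and 100.4 CPM on 40 UMIs. The Itga1 cells thus had the higher Cd38 level in both libraries and were more numerous in KD. Within the clusters the log2 ratio was 1.37 (0.11 to 2.77) for Klra4 cells and -0.29 (-1.35 to 0.94) for Itga1 cells.

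Ada, which codes for the deaminase that turns adenosine into inosine, was at a low level in every class. The highest level was in endothelial cells, 35.7 CPM in Ctrl (41 UMIs) and 26.1 CPM in KD (112 UMIs), where 8.13% (3.97% to 14.4%) and 3.90% (2.46% to 5.85%) of cells thinned to 1500 UMIs held an Ada UMI, against 0.307% and 0.539% of granulocytes. Kupffer cells had 16.6 and 18.3 CPM and tumor-like or fibroblast-like cells 13.3 and 15.3 CPM, and the remaining 9 classes lay between 2.20 and 9.52 CPM without separate neighbours. Macrophages had 7.61 CPM in Ctrl (196 UMIs) and 4.78 CPM in KD (107 UMIs), a log2 ratio of -0.67 (-1.02 to -0.32). The cluster of C1qc+ TAM-like macrophages gave 9.39 and 6.13 CPM, and the cycling-like one 12.49 and 9.45. The summed endothelial markers in macrophages were 149 CPM in Ctrl and 94.0 CPM in KD, and their part in the result was not tested. With cells thinned to 1500 UMIs the ratio of Ada in macrophages was -0.20.

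Adora2a, which codes for the adenosine receptor best known for restraining T and NK cells, was highest in NK-like cells. Their level was 127 CPM in Ctrl (84 UMIs) and 91.0 CPM in KD (86 UMIs), with a log2 ratio of -0.48 (-0.93 to -0.03) that became 0.11 when cells were thinned to 1500 UMIs. CD8+ T cells had 66.8 CPM in Ctrl (1445 UMIs) and 66.7 CPM in KD (514 UMIs), a log2 ratio of 0.00 (-0.15 to 0.14). CD4+ T cells (53.3 and 66.3 CPM), naive-like T cells (72.6 and 40.1) and endothelial cells (58.3 and 51.2) had no common order in the libraries. CD4+ T cells lay above naive-like T cells with separate intervals in KD and below them with overlapping intervals in Ctrl. Endothelial cells stood above macrophages (19.5 and 16.0) with separate intervals. B cells had 12.96 and 9.59 CPM and granulocytes 3.30 and 2.61 CPM. Adora2a was thus shared by T cells, NK-like cells and endothelial cells.

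In thinned cells Adora2a was found in 11.3% and 13.6% of NK-like cells, 9.53% (8.40% to 10.8%) and 9.95% (8.12% to 12.02%) of CD8+ T cells and 6.50% and 6.74% of endothelial cells, against 0.613% and 0.539% of granulocytes. Without thinning, 39.9% and 39.3% of CD8+ T cells held a UMI. The 3 CD8+ clusters ranged from 58.4 to 82.8 CPM over both libraries, and none had a ratio whose interval left out 0. Naive-like T cells differed between the libraries: 103 UMIs against 81 UMIs gave a log2 ratio of -0.86 (-1.30 to -0.42). In this class the Lef1 cluster had 61.0 CPM in Ctrl and 30.8 in KD, with a log2 ratio of -0.99 (-1.58 to -0.39), and the Slamf6 cluster 86.2 and 80.7, with a log2 ratio of -0.10 (-0.83 to 0.62). The Slamf6 cluster held 24.4% of the naive-like T cells in Ctrl and 10.5% in KD.

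Adora2b, which codes for the other receptor of this pair and needs more adenosine, was highest in macrophages. They had 34.7 CPM in Ctrl (893 UMIs) and 47.3 CPM in KD (1059 UMIs), a log2 ratio of 0.45 (0.32 to 0.58). Macrophages stood above cDCs (19.2 and 22.5 CPM), and cDCs above the next class, tumor-like or fibroblast-like cells (5.91 and 4.59 CPM), in both libraries and with separate intervals. CD8+ T cells had 1.80 and 0.908 CPM, endothelial cells 1.74 and 1.63, and B cells 2.36 and 3.32. With thinning, 4.999% of Ctrl macrophages (4.32% to 5.74%) and 6.64% of KD macrophages (5.74% to 7.63%) held an Adora2b UMI, against 0.440% and 0.105% of CD8+ T cells. Macrophages held 82.2% of Adora2b UMIs in Ctrl and 79.4% in KD, against 40.1% and 36.3% of the UMIs of all genes.

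The macrophages were split into sub-clusters whose sizes differed between the libraries. C1qc+ TAM-like cells made up 24.7% of the class in Ctrl and 38.4% in KD, inflammatory-like cells (Nos2, Il1b, Tnf) 31.2% and 11.5%, Vcan+ monocyte-like cells 9.60% and 15.2%, and cycling-like cells 11.8% and 4.62%. A cluster with raised Vegfa, Slc2a1 and Ero1a and a median of 2572 UMIs made up 22.5% and 11.2%. An unnamed cluster led by Ltc4s, Cxcl3 and Pf4 made up 0.247% and 17.4%, with 10 Ctrl and 503 KD cells, so that its values rest on 1 library. So do those of a small Pf4+ Ltc4s+ cluster, with 1 Ctrl and 49 KD cells (0.0247% and 1.69%).

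The 8 genes did not follow 1 pattern across these sub-clusters. Adora2b was highest in the Vcan+ monocyte-like cells, with 101 and 92.6 CPM, and lower in inflammatory-like cells, with 54.4 and 80.2 CPM. In C1qc+ TAM-like cells it was 11.8 and 17.0 CPM. P2rx7 ran the other way across these 3 sub-clusters, with 13.7 and 9.80 CPM in Vcan+ cells, 31.8 and 25.2 in inflammatory-like cells and 55.3 and 54.1 in C1qc+ TAM-like cells. Among the 5 sub-clusters other than the unnamed and the Pf4+ Ltc4s+ ones, the Vegfa cluster had the highest P2rx7 level, 90.1 and 84.7 CPM. It also had the highest Entpd1 level of these, 533 and 444 CPM. Its 10 leading genes held none of its markers and included AY036118 and Tsix, and its median share of mitochondrial UMIs was 3.70%, against 1.06% to 1.80% in the other sub-clusters of the class. The part of these cells' depth and RNA make-up in the result was not tested. Adora2a was 35.8 and 35.2 CPM in inflammatory-like cells and 5.26 and 6.23 CPM in C1qc+ TAM-like cells.

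Between the libraries, Adora2b was higher in KD in several sub-clusters. The log2 ratio was 1.44 (0.88 to 2.01) in cycling-like cells, 0.96 (0.26 to 1.64) in the Vegfa cluster, 0.56 (0.32 to 0.79) in inflammatory-like cells and 0.52 (0.13 to 0.93) in C1qc+ TAM-like cells, and it was -0.12 (-0.38 to 0.14) in Vcan+ cells. Cd38 in Vcan+ cells was 84.6 CPM in Ctrl and 188 CPM in KD, a log2 ratio of 1.15 (0.90 to 1.40), and after thinning 8.05% (5.54% to 11.2%) and 24.9% (20.95% to 29.3%) of these cells held a Cd38 UMI. In C1qc+ TAM-like cells Cd38 was 146 and 137 CPM. The unnamed Ltc4s cluster had 317 CPM of Cd38 in KD, and without the sub-clusters of 1 library the ratio of Cd38 in macrophages was -0.06. Adora2a in Vcan+ cells was 37.8 and 18.6 CPM, a log2 ratio of -1.02 (-1.55 to -0.51). Entpd1 had a log2 ratio of 0.35 (0.23 to 0.46) in inflammatory-like cells and of -0.43 (-0.61 to -0.25) in cycling-like cells.

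**Figure D4:**
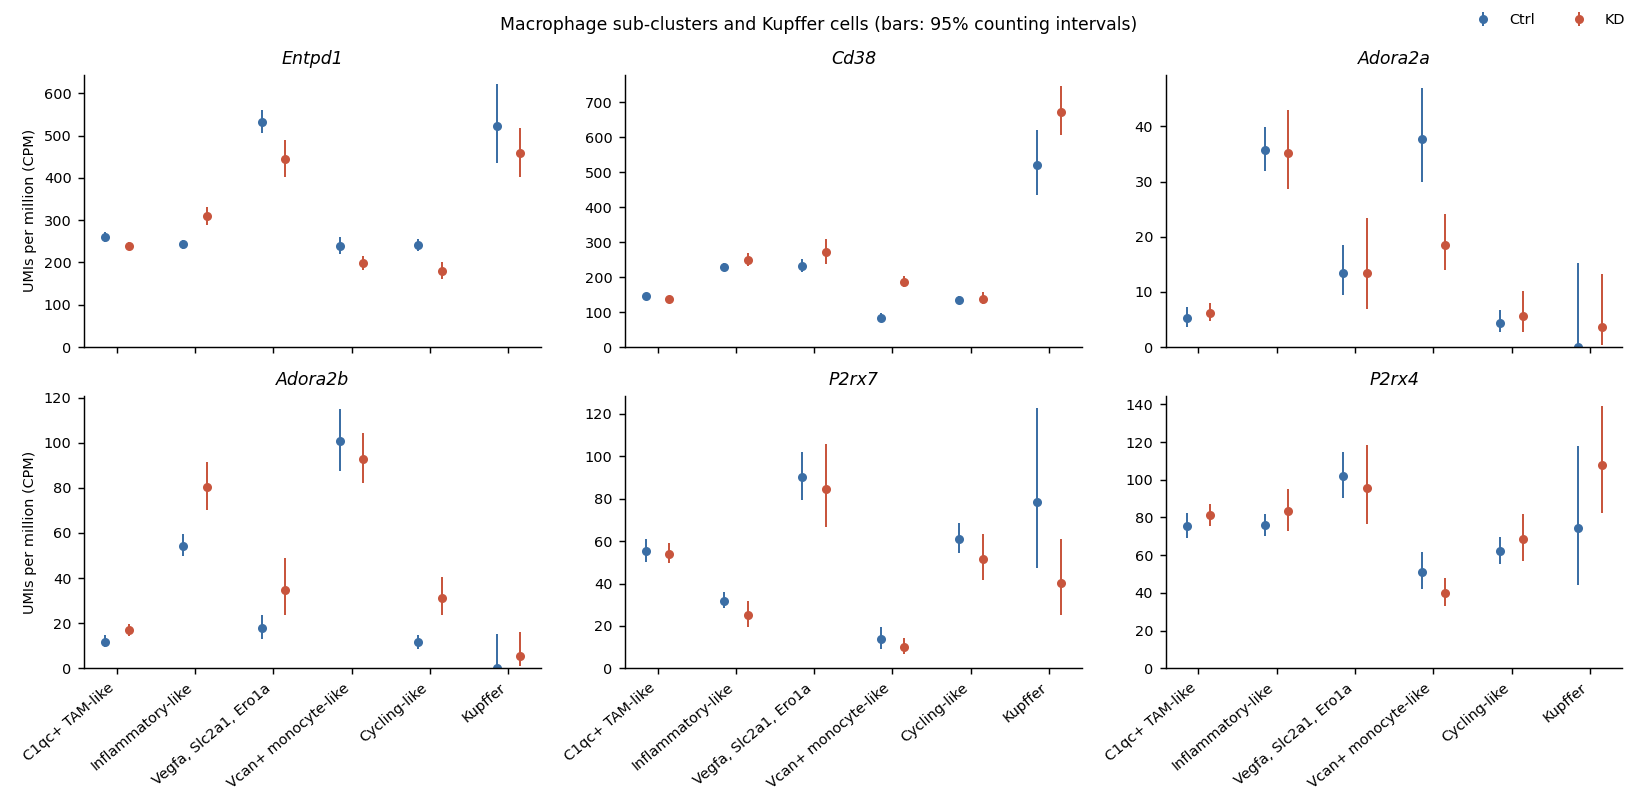
Level (CPM, linear axis from 0) of 6 genes in 5 macrophage sub-clusters and in Kupffer cells, Ctrl in blue and KD in red, with 95% counting intervals. Adora2b was highest in Vcan+ monocyte-like cells (101 and 92.6 CPM), where P2rx7 was lowest (13.7 and 9.80 CPM), and Cd38 in Vcan+ cells was 84.6 CPM in Ctrl and 188 CPM in KD.

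P2rx7, which codes for the ATP-gated channel P2X7, was highest in Kupffer cells and macrophages. Kupffer cells had 78.7 CPM in Ctrl (19 UMIs) and 40.3 CPM in KD (22 UMIs), which overlapped with the 48.4 and 43.3 CPM of macrophages (1245 and 969 UMIs). Macrophages stood above CD4+ T cells (24.4 and 29.4 CPM) with separate intervals. Below these, pDCs had 22.5 and 27.9 CPM, endothelial cells 15.7 and 17.5, cDCs 11.97 and 8.95, and B cells 3.53 and 5.90. Macrophage RNA would carry 3.30 and 3.21 CPM of P2rx7 in B cells and 9.24 and 8.91 CPM in endothelial cells, judged by the summed macrophage markers at the macrophages' own ratio. In granulocytes it would carry 13.6 and 11.0296 CPM, more than the 2.20 and 4.68 CPM found. The estimate was thus too high in granulocytes, and how far it is too high in B cells and endothelial cells was not tested. Macrophages held 83.1% of P2rx7 UMIs in Ctrl and 65.3% in KD, against 40.1% and 36.3% of the UMIs of all genes. In thinned cells, 6.91% of Ctrl macrophages (6.12% to 7.77%) and 5.10% of KD macrophages (4.31% to 5.98%) held a P2rx7 UMI, against 0.307% and 0.588% of granulocytes.

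Among T cells P2rx7 was highest in the conventional CD4+ subset of the named ones. Conventional CD4+ T cells had 43.0 CPM in Ctrl (23 UMIs) and 36.3 in KD (53 UMIs), and Tregs 6.99 and 14.7 CPM on 4 and 10 UMIs. A small unnamed cluster led by Il4, Zbtb16 and Cd40lg, with 6 Ctrl and 95 KD cells, had 115 CPM in KD (43 UMIs). P2rx7 was among the 10 leading genes of this cluster, although it had been left out of the genes used for clustering. After thinning, 15.8% (9.12% to 24.7%) of its KD cells held a P2rx7 UMI. The summed macrophage markers of CD4+ T cells, 243 and 274 CPM, would carry 0.744 and 0.608 CPM of P2rx7 at the macrophages' own ratio.

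CD8+ T cells had 1.53 CPM of P2rx7 in Ctrl (33 UMIs in 2504 cells) and 5.32 CPM in KD (41 UMIs in 956 cells). The log2 ratio of 1.80 (1.11 to 2.51) was the largest among the pairs of gene and class called different. It rested on few molecules: 24 Ctrl and 32 KD cells held any P2rx7 UMI. The cycling-like cluster had 14 and 27 UMIs, the exhausted-like cluster 13 and 6, and the effector-like cluster 6 and 8. At 1500 UMIs per cell, 0.307% (0.0372% to 1.104%) and 0.588% (0.304% to 1.02%) of granulocytes held a UMI. The share of CD8+ T cells was 0.280% (0.113% to 0.576%) and 1.36% (0.727% to 2.32%), not separate from that of granulocytes in either library. Without thinning it was 0.959% and 3.35%, at median depths of 7509 and 7031 UMIs, against 0.515% and 1.21% in granulocytes, at 2145 and 2812 UMIs. Macrophage markers would carry 0.457 and 0.396 CPM. Classes built from single cells gave a log2 ratio of 0.69 (-0.19 to 1.53), which was not called. With cells thinned to 1500 UMIs the ratio was 2.28 (0.85 to 3.85) on 7 and 13 UMIs, too few to be called.

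P2rx4, which codes for the related channel P2X4, was spread over B cells and the myeloid classes other than granulocytes (19.2 and 14.3 CPM). Kupffer cells (74.5 and 108 CPM), macrophages (74.1 and 78.0), B cells (74.2 and 70.4) and pDCs (51.0 and 70.8) were highest. Kupffer cells stood above macrophages and B cells with separate intervals in KD, but all 4 classes overlapped in Ctrl. Then came cDCs (43.5 and 33.9) and endothelial cells (32.2 and 42.1). CD8+ T cells were lowest, with 4.25 and 5.84 CPM. In thinned cells a P2rx4 UMI was found in 10.4% (9.49% to 11.5%) and 9.66% (8.58% to 10.8%) of macrophages and 10.2% (6.71% to 14.7%) and 8.79% (6.94% to 10.9%) of B cells, against 0.641% and 0.838% of CD8+ T cells. The log2 ratio was 0.08 (-0.02 to 0.17) in macrophages and -0.08 (-0.49 to 0.36) in B cells.

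A gene was called higher or lower in KD within a class when it had at least 50 UMIs there over both libraries, its CPM differed by at least 1.5-fold and the interval left out 0. The same rule over all genes gives the background. In macrophages, 0 of 8 genes were called higher, against 5.45% of the 13151 genes that could be called, and 2, Nt5e and Ada, were called lower, against 9.02%. In CD8+ T cells 1 of 7, P2rx7, was called higher (background 3.09%) and 0 lower (3.95%). In CD4+ T cells 1 of 6, Cd38, was called higher (3.62%) and 0 lower (6.37%). In naive-like T cells 0 of 5 were called higher (2.25%) and 1, Adora2a, lower (5.86%). In NK-like cells 2 of 3, Entpd1 and Cd38, were called higher (3.18%) and 0 lower (6.36%).

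In granulocytes 1 of 4, Cd38, was called higher and 0 lower, in a class where 16.2% of genes were called higher and 13.3% lower. No member was called in B cells (3 could be called, with backgrounds of 2.48% higher and 3.66% lower), in cDCs (6, with 4.9% and 4.65%) or in endothelial cells (6, with 6.54% and 8.03%). The median log2 ratio of the members that could be called was -0.15 in macrophages, where that of all genes was -0.04. It was 0.00 in CD8+ T cells (all genes -0.03), 0.29 in CD4+ T cells (-0.04), -0.23 in naive-like T cells (-0.06) and 1.17 over the 3 members in NK-like cells (-0.05). In granulocytes it was -0.29 over 4 members (0.14), in B cells -0.08 (-0.02), in cDCs -0.22 (0.00) and in endothelial cells 0.12 (-0.02). Nt5e in macrophages rested on 81 and 46 UMIs, with a log2 ratio of -0.61 (-1.17 to -0.07), and the summed T cell markers in macrophages were 37.1 CPM in Ctrl and 16.0 CPM in KD, and their part in the result was not tested. Of the 2 lower calls in macrophages, that of Nt5e was lost without likely doublets (-0.54, -1.10 to 0.01), and that of Ada with classes from single cells (-0.58), each of them again under other alternatives, so that both calls stood near the limit of the rule. With so few members per class, these counts describe 8 genes and not the pathway.

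**Figure D5:**
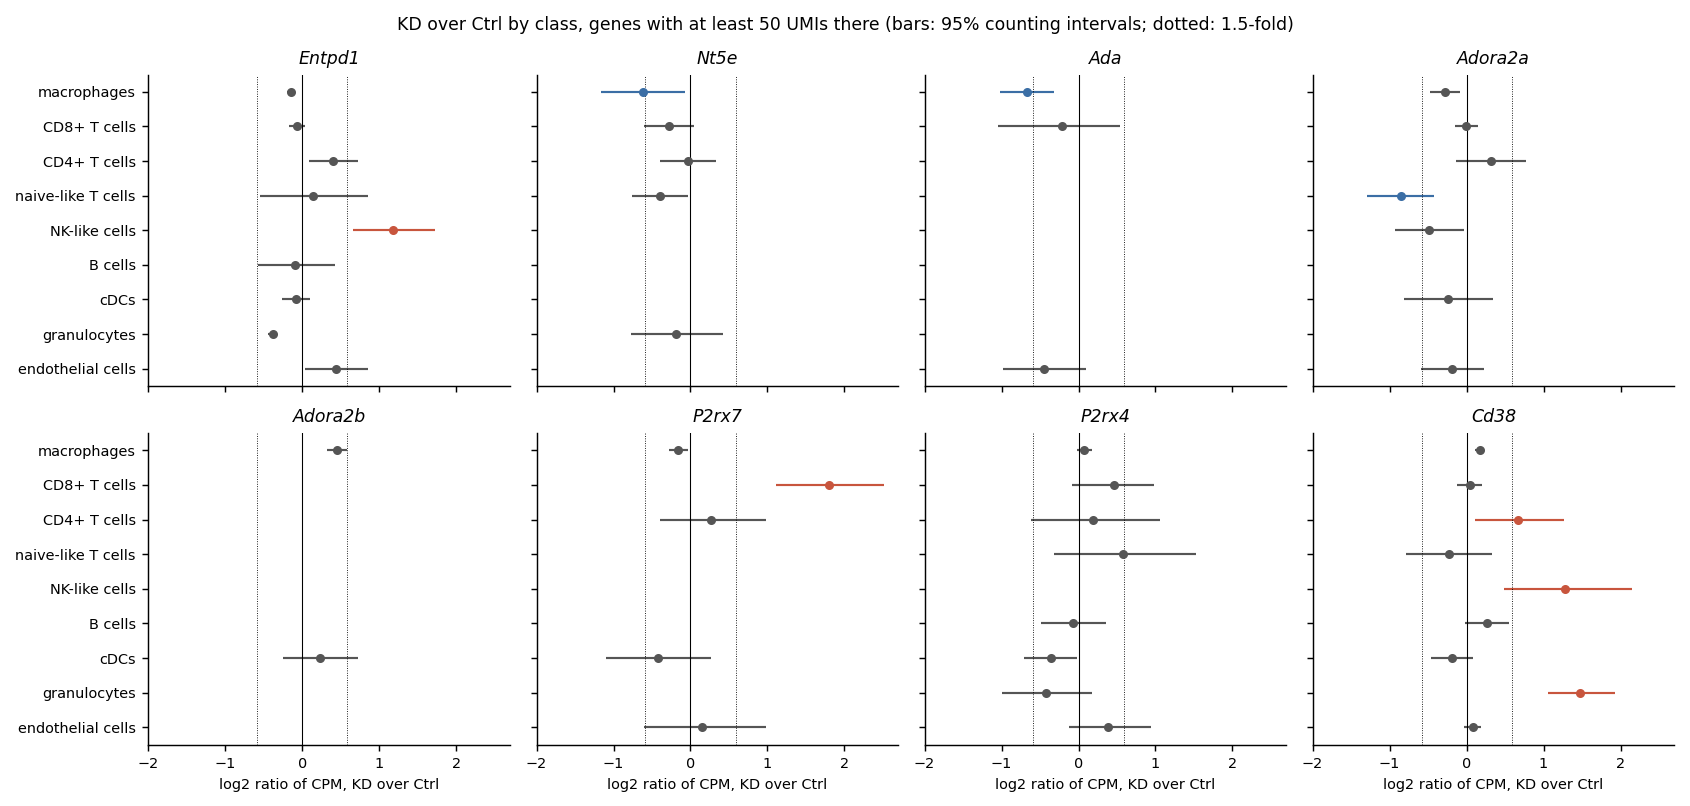
Log2 ratio of CPM, KD over Ctrl, of each gene in the 9 classes compared, for genes with at least 50 UMIs in the class. Bars are 95% counting intervals, dotted lines mark 1.5-fold, and genes called higher in KD are red and lower blue. The called pairs were Nt5e and Ada in macrophages and Adora2a in naive-like T cells (lower), and P2rx7 in CD8+ T cells, Cd38 in CD4+ T cells, NK-like cells and granulocytes and Entpd1 in NK-like cells (higher).

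Of 44 further genes of the pathway, 28 could be called in macrophages, where 3 were called higher and 1 lower. Enpp1, an ectoenzyme that cleaves ATP to AMP, had 1.63 CPM in Ctrl and 4.29 in KD there, a log2 ratio of 1.40 (0.86 to 1.95). The ADP receptor gene P2ry1 had 1.32 and 2.55 CPM, P2ry10b 21.1 and 32.0 CPM, and the ATP and UTP receptor gene P2ry2, called lower, 2.99 and 1.88 CPM. In CD8+ T cells 1 of 22 was called higher, Enpp2 (2.40 and 4.54 CPM), and 0 lower. In CD4+ T cells 0 of 10 were called higher and 1 lower, the adenosine kinase gene Adk (127 and 80.8 CPM). In naive-like T cells 2 of 12 were called higher, Art2b (13.4 and 27.2 CPM) and the vesicular ATP transporter gene Slc17a9 (9.16 and 18.8 CPM), and 1 lower, Entpd6 (21.9 and 12.4 CPM). ART2.2, the product of Art2b, can open P2X7 on mouse T cells in the presence of NAD. None of the 5 that could be called in NK-like cells was. The shares of all genes called higher and lower were 5.45% and 9.02% in macrophages and 3.09% and 3.95% in CD8+ T cells. They were 3.62% and 6.37% in CD4+ T cells, 2.25% and 5.86% in naive-like T cells and 3.18% and 6.36% in NK-like cells.

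In granulocytes 4 of 12 were called higher: the ectonucleotidase gene Entpd3 (44.5 and 80.5 CPM), its family member Entpd5 (4.40 and 9.21), Slc17a9 (2.20 and 6.46) and Adk (13.2 and 23.5). The purine nucleoside phosphorylase gene Pnp was called lower there, with 283 and 175 CPM, and also in B cells, with 71.9 and 45.7 CPM, where it was the only 1 of 12 called. In cDCs 1 of 17 was called higher, the nucleoside transporter gene Slc28a2 (3.26 and 10.1 CPM), and 1 lower, Bst1 (43.1 and 23.6 CPM), which codes for an NAD ectoenzyme related to CD38. In endothelial cells 0 of 12 were called higher and 1 lower, Gja1 (411 and 272 CPM), which codes for connexin 43, a channel that can release ATP. The shares of all genes called higher and lower were 16.2% and 13.3% in granulocytes and 2.48% and 3.66% in B cells. They were 4.9% and 4.65% in cDCs and 6.54% and 8.03% in endothelial cells. With so few genes per class, these counts describe the listed genes and not the pathway.

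The classes high in the 8 genes also held other parts of the pathway. Endothelial cells, highest in Cd38 and Ada, had 341 CPM of the nucleoside transporter gene Slc29a1 in Ctrl and 449 in KD, and 395 and 512 CPM of Dpp4, which codes for a cell-surface peptidase. Granulocytes, highest in Entpd1, had 181 and 204 CPM of Bst1. Macrophages had 321 and 250 CPM of Pnp and 63.5 and 64.0 CPM of the UDP receptor gene P2ry6. B cells had 226 and 242 CPM of P2ry10, and pDCs 351 and 365 CPM of the UDP-sugar receptor gene P2ry14. The adenosine receptor gene Adora3 reached at most 5.80 and 10.3 CPM, in cDCs.

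Across 14 classes in 2 libraries (28 points that share library and depth), Pearson's r of log2(CPM + 1) was computed with 10116 other genes, as a description of likeness only. Among the nearest were Arpc3 and Alcam for Entpd1 (0.86 and 0.84), Rnf125, Ttn and Gprin3 for Nt5e (0.84 to 0.89), and Tpp1, Lifr and Npl for Cd38 (0.83 to 0.85). For Ada they were Septin10, Ginm1 and Plcb3 (0.83 to 0.86), for Adora2a Gnptg, Dnajc1 and Slc25a40 (0.89 to 0.94), and for Adora2b Fcgr1, Tppp3 and Slc22a4 (0.85 to 0.86). For P2rx7 they were Rbfa, Ldhb and Abca3 (0.70 to 0.71), and for P2rx4 Cybb, Cd74 and Lmo2 (0.88 each). Among the members themselves, the most alike pair was P2rx4 and Cd38 (0.54), and the most opposed were Nt5e and Cd38 (-0.64).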

How the data were processed

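CD45+ cells of 2 droplet-based 3' single-cell libraries, Ctrl and KD, were analysed. The deposited values are counts of UMIs by gene and barcode. The authors counted them with Cell Ranger 7.1.0 on build GRCm39, according to the submitters' processing notes, which also name Seurat 5.1.0 and R 4.4.1. Use of intronic reads and the annotation version are not given in the sources used here. The reference at hand is of another build, so no coordinates or sequences are given. P2rx7 shares exon sequence on its strand with Mir8115, so their counts are uncertain.

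Barcodes were kept where they had 200 to 6000 genes, no more than 30000 UMIs and no more than 10% of UMIs from mitochondrial genes (19999 of 21359). Doublets were not otherwise removed. Scrublet (scanpy 1.11.5) scored likely doublets, and leaving out 771 Ctrl and 830 KD cells with the top scores was 1 of the alternatives. Seurat 5.3.0 (R 4.3.3, 2000 variable genes, 20 components, resolution 0.5, no integration) clustered all cells, then T and NK cells and macrophages again. The 8 genes and the 44 other genes of the pathway were never variable genes. Clusters were named by at least 3 markers. Clusters with fewer markers or with leading genes that went against the name stayed unnamed (in all 6.73% of Ctrl and 5.96% of KD cells). So did clusters under 33.3% of their library's median UMIs with none of the name's markers among the 10 leading genes. The unnamed cells include a low-depth cluster with 5 T cell markers (294 Ctrl and 96 KD cells) and a cluster with 0 markers (163 and 157). Rebuilt names may differ from those of the study.

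UMIs were summed per class and library, with exact Poisson intervals for CPM, exact conditional binomial intervals for log2 ratios and Clopper-Pearson intervals for shares (numpy 2.4.6, scipy 1.17.1, pandas 2.3.3, Python 3.11.15). No test was made, since a group is 1 library. UMIs of 1 cell are not independent, and the intervals cover counting error only. The ratio method was tested only on simulated independent counts, which cannot show how the intervals hold for UMIs that are not independent. The text names the 8 genes, the genes of a pathway list that were called or high in their group, and the 3 genes most alike to each, of which 1 is not reported here. The members, lists and rules were chosen with earlier results of these data known. Clusters of the NK-like cells and granulocytes were examined after values were seen.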

Additional observations from a re-analysis of the deposited data

How the results depend on the processing

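No paired analysis was possible because each group is 1 library. The counts of members called were recomputed under each alternative for the classes it touches, and not per cell. Of these counts 173 stayed within 1.5 times the first value while 23 did not. Many first values were 0, which a 2-fold limit, for example, cannot raise, so these figures say little about stability. Of the ratios of single genes 378 moved by less than their counting interval, 46 moved by more, and 10 whose interval had left out 0 changed sign. Of the shares 31 moved little and 65 more.

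Lower calls in macrophages (2 as reported) numbered 1 without likely doublets, with classes from single cells, with the median ratio set to 0, without sub-clusters of 1 library and with equal sub-cluster make-up, and 0 with cells thinned to 1500 UMIs or a 2-fold limit. The lost call was that of Nt5e without doublets (-0.54) and with the median set to 0 (-0.58), and that of Ada with single cells (-0.58), without sub-clusters of 1 library (-0.51) and with equal make-up (-0.54), while over all alternatives Nt5e ran from -1.20 to -0.33 and Ada from -0.67 to -0.20. The higher call in CD8+ T cells became 0 with classes from single cells (0.69), and with thinned cells, where the ratio was 2.28 but 20 UMIs were left. That in CD4+ T cells became 0 with thinned cells, cells weighted equally, equal make-up and a 2-fold limit. The lower call in naive-like T cells became 0 with thinned cells and at 2-fold, and the 2 higher calls in NK-like cells became 0 with thinned cells and with classes from single cells. Classes from single cells gave 1 higher and 3 lower calls in cDCs and 1 lower call in endothelial cells. Leaving out likely doublets gave 1 lower call each in granulocytes and endothelial cells, and resolution 1.0 gave 2 lower calls in granulocytes. The naive-like class could not be built from single cells. With thinned cells, Nt5e in macrophages (24 UMIs), Cd38 in CD4+ T cells (45) and NK-like cells (23) and Adora2a in naive-like T cells (47) also had too few UMIs to be called. The cause of the other differences was not tested.

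For Entpd1, the log2 ratio in macrophages (-0.15) was -0.047 with classes from single cells, -0.26 with cells weighted equally, -0.093 with equal make-up and 0.13 per cell in place of per UMI. In CD8+ T cells it was 0.25 with thinned cells. In endothelial cells (0.43) it was -0.21 without doublets, -0.73 with classes from single cells and -0.72 with thinned cells, and in CD4+ T cells (0.40) -0.17 with thinned cells. Adora2a in NK-like cells was 0.11 with thinned cells, and Cd38 in macrophages -0.060 without sub-clusters of 1 library. Per cell, Entpd1 in granulocytes was 0.10, Adora2a in macrophages 0.0019 and P2rx7 in macrophages 0.12. Over all alternatives Cd38 in granulocytes ran from 1.05 to 1.96 and Adora2a in naive-like T cells from -1.13 to -0.75.

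Another numerical kernel, tried after seeing the data, put 162 of 5615 T and NK cells in another class. With 1 library per group, mouse, lesion and library cannot be told apart from the hairpin, and genes with few UMIs (Ada, and P2rx7 in T cells) are limited by depth.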
